A study of Mus musculus with 12 samples.

Results

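Tropomyosin transcripts and the factors that splice muscle RNA were compared between the lung and the heart of mice with and without Adam19. The 10 genes were chosen by name and comprise the tropomyosin genes Tpm1, Tpm2, Tpm3 and Tpm4, the spliced muscle genes Ldb3 and Camk2d, and the splicing factors Rbm20, Rbm24, Mbnl1 and Celf1. They are 10 of 55679 genes in the gene table and 130 of 147907 transcripts in the transcript table. All 10 passed the filter on low values in both tissues.

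The mice were males of the 129S6/SvEvTac strain aged 9 to 13 weeks. WT mice carried intact Adam19, and KO mice were homozygous for an allele in which an in-frame tdTomato construct replaced exons 6 and 7 of Adam19, with an antisense hygromycin resistance cassette. Whole lung and whole heart came from the same 6 mice, 3 WT and 3 KO, giving 12 libraries of stranded total RNA and 3 libraries per tissue and genotype. The labels do not say which of these mice were littermates, so the part of litter in the KO and WT differences could not be tested. In the sample titles, the number before the point in a mouse's name is never shared by WT and KO mice. The titles do not say what that number stands for, and its part cannot be told apart from genotype.

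Tropomyosin is a coiled-coil protein that lies along actin filaments. In striated muscle it acts with troponin to gate myosin binding, and in other cells its short and long forms mark different actin filaments. The Tpm genes make many forms by the choice of a first exon (1a for long forms, 1b for short forms), by mutually exclusive internal exons (2a or 2b, 6a or 6b) and by different last exons (9a or 9d). RBM20 and RBM24 are splicing factors of cardiac and skeletal muscle, RBM20 acting largely by exon repression in genes such as Ttn, Camk2d and Ldb3. MBNL1 and CELF1 are widely made splicing factors with opposing effects on many muscle exons, and MBNL1 favours the adult pattern.

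Total estimated counts ranged from 17674788 to 35862932 per library. Adam19 was lower in each KO library than in each WT library of its tissue, at 3.21 to 4.44 against 9.12 to 9.41 in lung and at 6.01 to 6.67 against 9.17 to 10.27 in heart (log2 normalized abundance). All 7 cardiomyocyte markers were higher in heart (summed log2 level 20.6 to 20.9, against 13.3 to 14.8 in lung) and all 6 lung epithelium markers were higher in lung (at least 18.5, against at most 10.54 in heart). Lung libraries thus held reads of cardiomyocyte genes. One library stood apart within its group: lung WT replicate 2 had the highest level among the lungs for 7 of 7 skeletal muscle markers. Its summed level was 11.9, against 8.11 to 9.32 in the other 5 lungs and 15.6 to 16.4 in the hearts.

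The alternative exons of Tpm1 carry most of what follows, so their sequences are shown in transcript order, 5′ to 3′, from GRCm39. Tpm1 lies on the minus strand at chr9:66929870-66956953. Capitals mark the bases that differ between the members of a mutually exclusive pair, and the other exons are in lower case.
Tpm1 exon 1a (chr9:66956301-66956414, minus strand): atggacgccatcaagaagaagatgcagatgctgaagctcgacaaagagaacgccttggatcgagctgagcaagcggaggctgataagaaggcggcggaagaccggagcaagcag
Tpm1 exon 2a (chr9:66955406-66955531, minus strand): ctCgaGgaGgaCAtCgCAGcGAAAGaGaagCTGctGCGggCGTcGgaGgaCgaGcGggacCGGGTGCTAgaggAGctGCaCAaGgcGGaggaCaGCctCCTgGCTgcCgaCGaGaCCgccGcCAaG
Tpm1 exon 2b (chr9:66955068-66955193, minus strand): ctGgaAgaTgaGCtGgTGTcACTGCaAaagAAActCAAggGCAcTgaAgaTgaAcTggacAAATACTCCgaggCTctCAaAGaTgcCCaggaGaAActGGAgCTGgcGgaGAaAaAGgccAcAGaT
Tpm1 exon 1b (chr9:66950860-66950991, minus strand): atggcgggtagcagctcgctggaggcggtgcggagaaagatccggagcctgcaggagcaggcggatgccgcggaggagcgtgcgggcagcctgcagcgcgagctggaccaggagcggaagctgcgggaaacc
Tpm1 exon 6a (chr9:66939748-66939823, minus strand): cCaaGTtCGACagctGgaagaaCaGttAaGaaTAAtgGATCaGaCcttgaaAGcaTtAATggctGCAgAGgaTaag
Tpm1 exon 6b (chr9:66939233-66939308, minus strand): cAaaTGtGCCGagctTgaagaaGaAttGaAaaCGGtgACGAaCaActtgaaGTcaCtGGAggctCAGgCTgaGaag
Tpm1 exon 9a (chr9:66936946-66937024, minus strand): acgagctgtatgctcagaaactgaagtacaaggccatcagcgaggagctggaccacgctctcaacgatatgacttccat
Tpm1 exon 9d (chr9:66930644-66930723, minus strand): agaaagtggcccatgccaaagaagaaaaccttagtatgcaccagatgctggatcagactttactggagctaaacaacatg
Exons 2a and 2b are both 126 bases long, differ at 66 of them and are 47.6% identical. Exons 6a and 6b are both 76 bases long, differ at 33 and are 56.6% identical. A change of exon within a pair therefore replaced a stretch of coding sequence without changing its length. An exon's share, as used below, is the share of the gene's estimated counts that the quantifier assigned to transcripts holding that exon.

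The gene level of Tpm1, in log2 normalized abundance, was 12.77, 12.51 and 13.26 in WT lung and 12.45, 12.24 and 12.22 in KO lung. In heart it was 18.00, 17.73 and 18.02 in WT and 17.83, 17.68 and 18.34 in KO. The tissues did not overlap, and the lung level was lower by 5.36 on the log2 scale (SE 0.17), a 41.0-fold difference (limma across all genes, adjusted p = 1.7e-11). Ldb3, which codes for a Z-disc protein, was lower in lung by a 102-fold difference, with levels of 7.02 to 8.35 in lung and 14.30 to 14.79 in heart (log2 difference -6.67, SE 0.20, limma adjusted p = 1.5e-11).

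Tpm3 and Tpm4, the genes for cytoskeletal tropomyosins in most cells, were higher in lung. Tpm3 had levels of 11.11, 10.72 and 10.86 in WT lung and 10.35, 10.09 and 10.67 in KO lung, against 8.04 to 8.72 in the 6 hearts (log2 difference 2.22, SE 0.15, limma adjusted p = 2.4e-08). Tpm4 had levels of 12.68 to 13.05 in lung and 10.79 to 11.17 in heart (log2 difference 1.87, SE 0.09, limma adjusted p = 9.0e-10). Neither gene's lung and heart values overlapped. Tpm2, the beta tropomyosin of skeletal and smooth muscle, did not pass the test (log2 difference -0.20, SE 0.16, limma adjusted p = 0.29), with 9.37 to 9.85 in lung and 9.11 to 10.77 in heart. Its difference was -0.52 after TMM scaling (adjusted p = 0.018) and -0.34 without heart KO replicate 2 (adjusted p = 0.038), both under 1.5-fold.

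Among the splicing factors, Rbm20 and Rbm24 showed large differences between tissues. Rbm20 had levels of 7.35, 7.34 and 7.33 in WT lung and 7.52, 7.03 and 6.65 in KO lung, and of 13.48, 13.41 and 13.55 in WT heart and 13.52, 13.68 and 13.43 in KO heart. It was 79.3-fold lower in lung (log2 difference -6.31, SE 0.13, limma adjusted p = 6.3e-13). Rbm24 was 59.8-fold lower in lung (5.94 to 6.92 against 12.22 to 12.45, log2 difference -5.90, SE 0.14, limma adjusted p = 2.5e-12). Celf1 was 1.93-fold lower in lung (10.59 to 11.03 against 11.46 to 12.05, limma adjusted p = 2.6e-06), and Camk2d, the delta subunit gene of the calcium and calmodulin dependent kinase II, was 3.06-fold lower (10.70 to 10.91 against 12.16 to 12.99, limma adjusted p = 2.7e-08). Mbnl1 was higher in lung by 1.33-fold (limma adjusted p = 0.0049), less than the 1.5-fold asked for a call, and by 0.17 on the log2 scale after TMM scaling (adjusted p = 0.11). These values are not per length, so they do not order the genes by level.

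In all, 6 of the 10 genes were higher in heart and 2 were higher in lung. Of 17666 genes tested, 21.2% were higher in heart and 30.1% were higher in lung by the same rule (adjusted p below 0.05, at least 1.5-fold, and a mean of at least 6 in 1 group). The split over all genes moved with the scaling between libraries: 5326 genes were higher in lung and 3744 in heart as deposited, against 4417 and 4577 after TMM scaling, with median differences of 0.31 and 0.06 on the log2 scale. The same 8 members were called under both scalings, each in the same direction. Tpm1, Ldb3, Rbm20 and Rbm24 were lower in lung, as were the cardiomyocyte markers, whose summed level was lower by 6.89 on the log2 scale. Whether these genes and the markers varied together among libraries of a tissue was not tested. The part of cardiomyocyte number in the gene levels was not tested either. In these bulk samples fewer cells of a type and less RNA per cell cannot be told apart.

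**Figure D1:**
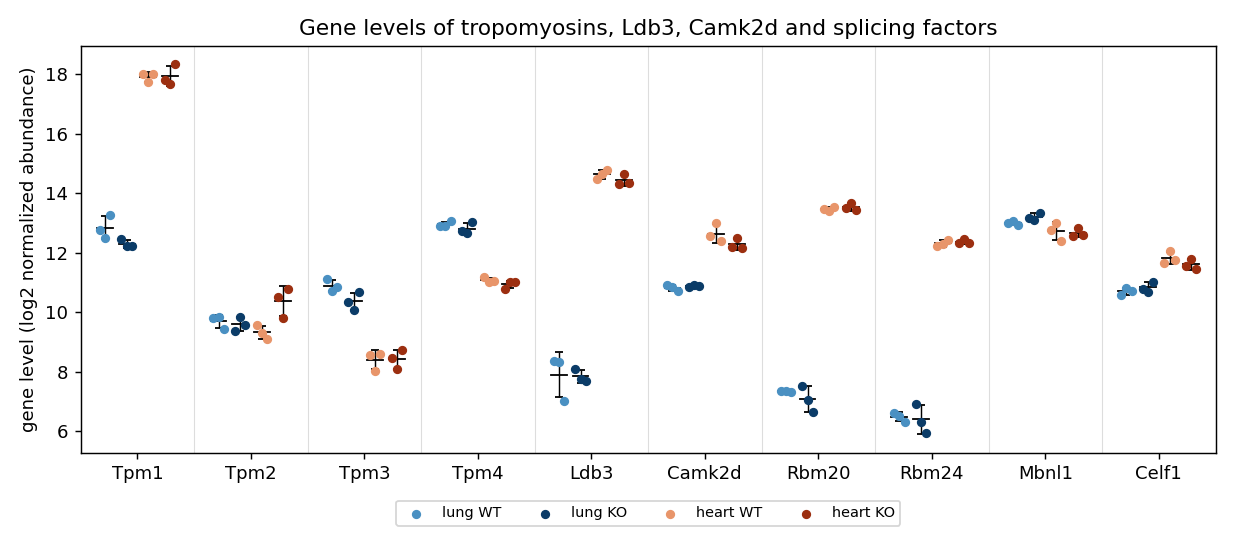
Gene level (log2 normalized abundance, y axis) of the 10 genes in each library, coloured by tissue and genotype, with the mean and SD of 3 libraries per group. Tpm1, Ldb3, Rbm20 and Rbm24 lie far higher in heart than in lung, Tpm3 and Tpm4 lie higher in lung, and the Tpm2 points of KO hearts lie above those of WT hearts.

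Counts divided by transcript length allow the 4 tropomyosin genes to be set against each other. Tpm1 made up 98.6% to 98.9% of this pool in the 6 hearts. In the lungs it made up 43.6%, 41.2% and 50.7% in WT and 44.1%, 41.4% and 35.9% in KO, beside Tpm4 at up to 46.1%, Tpm3 at 10.7% to 16.0% and Tpm2 at 2.64% to 5.71%. The heart pool was thus almost wholly Tpm1, while in lung Tpm1 and Tpm4 made up similar shares (means 42.8% ± 4.8 and 40.1% ± 4.0, SD, n = 6). These shares change if a near-identical copy of Tpm3 is counted. Tpm3-rs7 matches Tpm3 transcripts at 97.5% identity over 2112 bases, and the quantifier gave it 64.5% to 73.8% of the counts that the pair shared, so the split of reads between the copies is uncertain. With Tpm3-rs7 added, Tpm3 made up 21.9% to 30.1% of the lung pool, Tpm4 30.8% to 37.5% and Tpm1 29.2% to 44.8%, and Tpm1 still made up 98.4% to 98.8% of the heart pool. The summed level of the pair was higher in lung by 2.50 on the log2 scale, which is 5.67-fold (12.30 to 12.58 against 9.75 to 10.17, exact permutation test within genotype, p = 0.005, the smallest it can give).

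**Figure D2:**
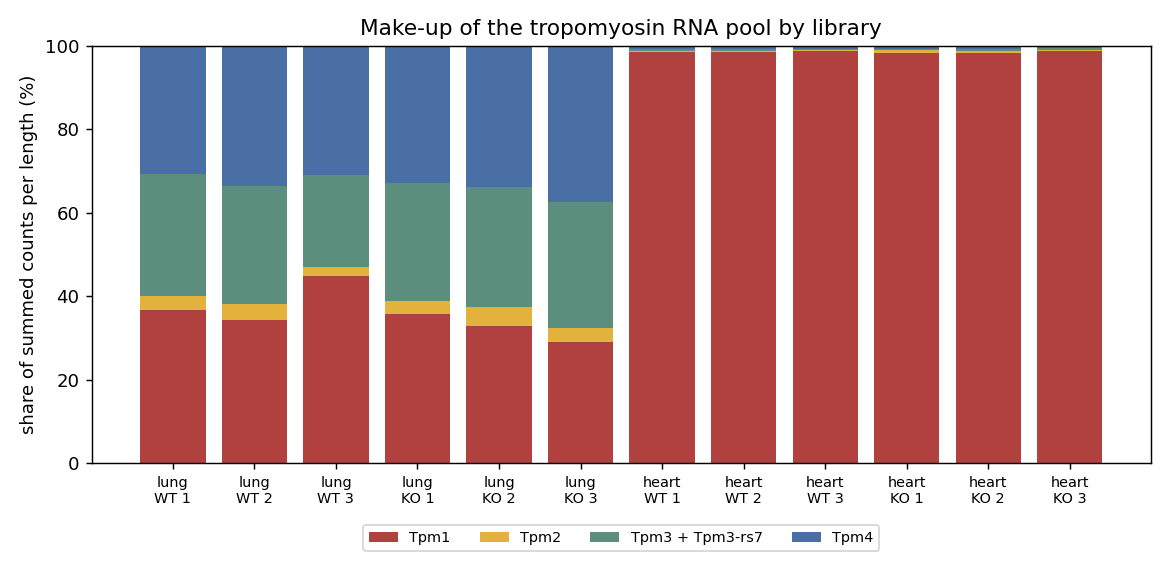
Share of summed counts per length (y axis, %) taken by Tpm1, Tpm2, Tpm3 with its copy Tpm3-rs7, and Tpm4 in each of 12 libraries (x axis), as stacked bars. Tpm1 fills at least 98.4% of each heart bar, whereas the lung bars are divided among Tpm1, Tpm3 with Tpm3-rs7 and Tpm4.

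Within Tpm1, the heart held nearly 1 form. Tpm1-205, the striated muscle form with exons 1a, 2b, 6b and 9a, made up 98.1%, 98.1% and 98.4% of Tpm1 counts in WT heart and 97.7%, 98.1% and 98.0% in KO heart. In lung it made up 33.2%, 26.9% and 39.2% in WT and 29.8%, 25.6% and 20% in KO. No lung came near the hearts, and the difference was -69.0 percentage points (limma on arcsine square root shares, adjusted p = 1.3e-07). The exact permutation test of this single share gave p = 0.005, and with mice paired p = 0.031, each the smallest the test can give.

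The lungs added short and cytoskeletal forms. Tpm1-211, which starts at exon 1b and ends at exon 9d, made up 43.7%, 45% and 30.3% of Tpm1 counts in WT lung and 40.9%, 36.3% and 43.9% in KO lung (limma adjusted p = 1.0e-06). It was at 0 in the 6 hearts, where 3 counts would be a share of 0.000929% to 0.00261%. Tpm1-213, with 1a, 2b, 6a and 9d, made up 0% to 19.8% in lung and at most 0.134% in heart (difference 12.2 points, limma adjusted p = 0.0081), a call that ended with shares per length (9.94 points) and with diffSplice, limma's test of a transcript against the others of its gene (adjusted p = 0.053). Tpm1-214, with 2a in place of 2b, made up 0% to 17.3% in lung and at most 0.0048% in heart, a difference of 8.42 points that is under the 10 points asked for a call. The quantifier placed Tpm1-213 at 0 in lung WT replicate 1 and Tpm1-214 at 0 in lung WT replicate 3.

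**Figure D3:**
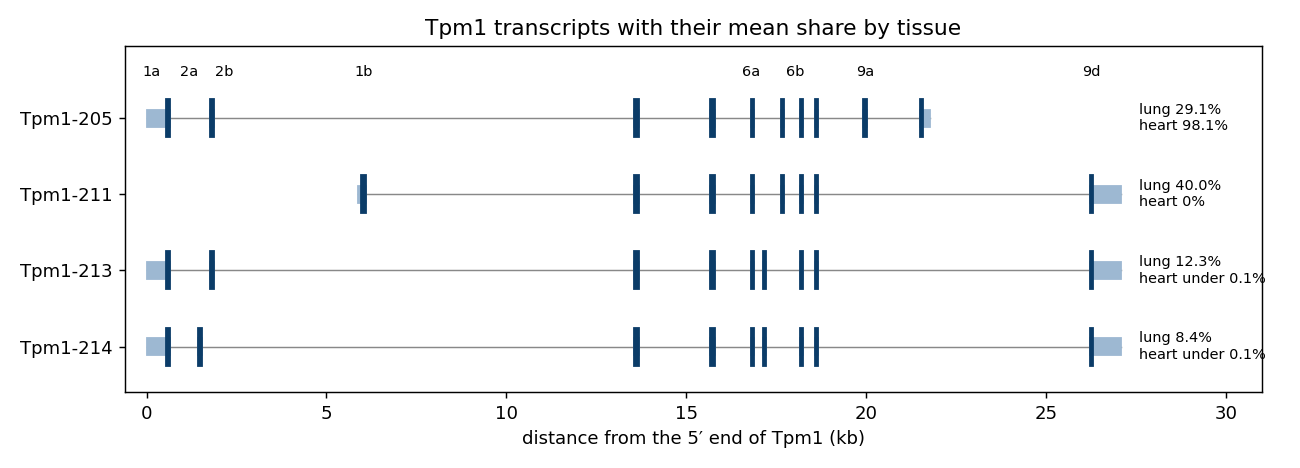
Exons of the 4 Tpm1 transcripts with a mean share of at least 10% in 1 of the 4 groups, by distance from the 5′ end of the gene (x axis, kb). Dark boxes are coding, pale boxes are untranslated, and the mean share in 6 lungs and 6 hearts stands at the right: Tpm1-205 takes 29.1% in lung and 98.1% in heart, and Tpm1-211 takes 40.0% and 0%.

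By exon, the choices named here differed between tissues. Exon 9a, which codes for the end that binds troponin T in striated muscle, was in 29.1% ± 6.6 of Tpm1 counts in lung and 98.1% ± 0.2 in heart, while exon 9d was in 65.4% ± 5.2 and 0.86% ± 0.21 (SD, n = 6 each). Exon 1b was in 52.7%, 49.1% and 33.3% in WT lung and 45.6%, 38.8% and 46.7% in KO lung, and in 0.079% to 0.172% in heart. Exon 2b was in 43.1% ± 8.0 in lung and 99.2% ± 0.2 in heart, with exon 2a at 7.36% to 18.8% in lung and 0.402% to 0.999% in heart. Exon 6a was in 19.1% to 29.8% in lung and 0.0152% to 0.143% in heart. None of the 8 exons overlapped between tissues, and all 8 passed the test (limma adjusted p from 4.1e-08 to 1.3e-04). The 8 were picked from 13 tested exon groups of Tpm1 in part by their tissue difference. Neither their passing nor their lack of overlap is therefore separate support. The share of all exon groups without overlap between tissues was not counted. The other groups did not pass. Shares of one gene sum to a whole and its exons share transcripts, so these are not 8 independent results. The difference of exon 2a was 10.1 points and was under the 10 points asked with shares per length (8.19), without lung WT replicate 1 (9.42) and without lung KO replicate 2 (8.58).

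Over all members, 23 of 69 exon groups tested passed in lung against heart, 8 of them in Tpm1, 6 in Mbnl1, 4 in Camk2d, 3 in Ldb3 and 2 in Tpm2. No exon group of Tpm3, Tpm4, Rbm20, Rbm24 or Celf1 passed. The background was 14.7% of 34529 exon groups. An exon group is the set of coding exons held by the same listed transcripts of a gene. Groups of a gene share transcripts and are not independent. For transcripts, 13 of 77 tested members passed against 11.1% of 33839, which is not far from the background.

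Levels were also compared in place of shares. The normalized level of Tpm1-205 was lower in lung by 6.89 on the log2 scale (10.06 to 11.99 against 17.52 to 18.17, exact p = 0.005). Transcripts with exon 9d had levels of 11.80 to 12.52 in lung and 10.57 to 11.57 in heart, 2.25-fold higher in lung (exact p = 0.005). So exon 9d transcripts were 0.86% of Tpm1 in heart but stood at a level within 1.17 log2 units of lung. Transcripts with exon 2a, the smooth muscle exon, were 2.01-fold lower in lung (8.85 to 9.95 against 9.93 to 11.12, exact p = 0.005), although their share of Tpm1 was higher in lung. In the heart nearly all exon 2a counts came from Tpm1-215, with exons 1a, 2a, 6b and 9d, the smooth muscle form. Summed smooth muscle markers were at 13.1 to 13.7 in lung and 13.5 to 14.4 in heart, with some overlap. Of the 6 markers, 2 were called higher in lung and 2 higher in heart. Over all genes tested the shares were 30.1% and 21.2%. The part of these markers in the exon 2a level was not tested. The level of Tpm1-205 in lung was highest in lung WT replicate 3, which also had the highest summed cardiomyocyte markers of the lungs (14.8), and the part of cardiomyocyte RNA in the lung share of Tpm1-205 was not tested.

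**Figure D4:**
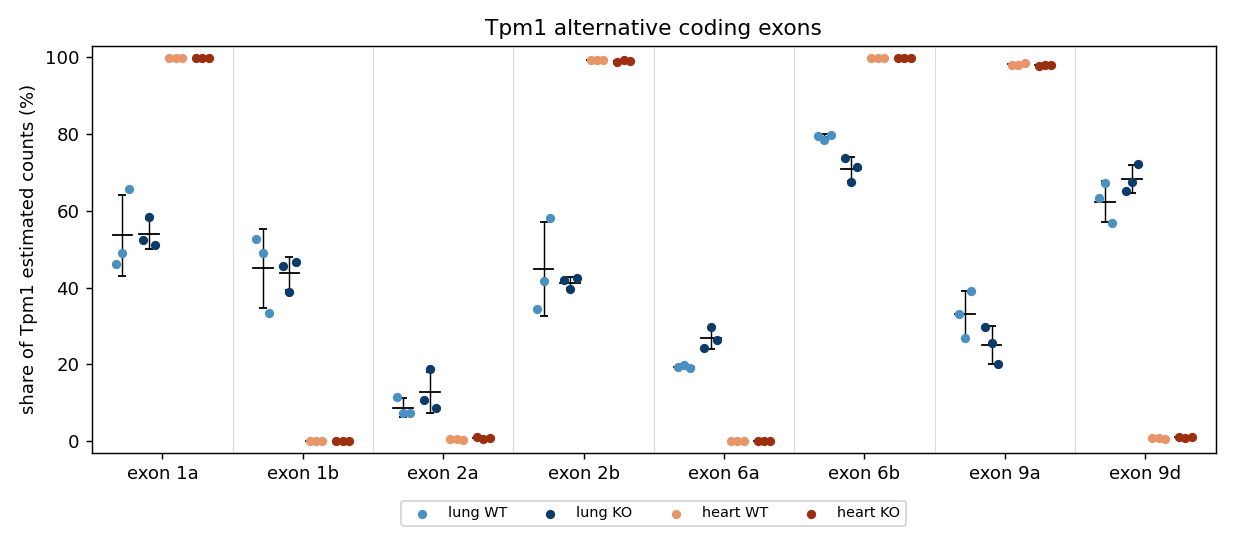
Share of Tpm1 estimated counts (y axis, %) from transcripts with each of 8 alternative coding exons, in each library, with the mean and SD of 3 libraries per group. In heart exons 1a, 2b, 6b and 9a lie at 97.7% or above and the other 4 at 1.19% or below, and in lung each exon lies apart from its heart values.

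Tpm2 makes the same choices, with 6b and 9a in its skeletal muscle form and 6a and 9d in its smooth muscle and non-muscle form. The alternative exons 6 of Tpm2 are shown to compare them with those of Tpm1, with the bases that differ within the pair in capitals (35 of 76, 53.9% identical).
Tpm2 exon 6a (chr4:43519003-43519078, minus strand): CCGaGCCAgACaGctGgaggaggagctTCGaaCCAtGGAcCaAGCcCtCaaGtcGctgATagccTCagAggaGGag
Tpm2 exon 6b (chr4:43518644-43518719, minus strand): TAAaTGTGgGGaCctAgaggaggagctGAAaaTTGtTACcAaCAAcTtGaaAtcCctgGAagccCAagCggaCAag
Tpm2-203, with exons 6a and 9d, made up 97.0%, 79.2% and 98.8% of Tpm2 counts in WT lung and 97.4%, 97.9% and 97.6% in KO lung. In heart it made up 77.9%, 61.6% and 82.8% in WT and 87.3%, 88.7% and 90.8% in KO. The 9d share was 13.1 points higher in lung (limma adjusted p = 0.020), with lung WT replicate 2 inside the range of the hearts. That library, the lung with the highest skeletal muscle markers, gave 20.4% of its Tpm2 to Tpm2-202, the form with 6b and 9a. The other 5 lungs gave it 0% to 2.36%. Acta1, the skeletal actin gene, was 10.27 there and 2.27 to 3.80 in the other lungs. Without it the 9d difference was 16.3 points (adjusted p = 0.0017), and exon 6b, at 4.21% to 37.2% in heart, also passed, by -14.0 points (adjusted p = 0.012), against -10.6 points and adjusted p = 0.094 with all libraries and adjusted p = 0.019 with the replicate block, in which lung and heart of a mouse are paired. Exon 6b also passed without heart WT replicate 3 (-14.8 points, adjusted p = 0.039), and its exact test over all libraries gave p = 0.10. Tpm2 rested on 324 to 1838 counts in heart and 602 to 1367 in lung, giving 95% Wilson half-widths of up to 4.72 points for a single library, which cover counting error only.

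Tpm3 and Tpm4 showed no exon group or transcript that passed. Tpm3-202 made up 43.5%, 59.8% and 46.9% of Tpm3 counts in WT lung and 69.6%, 82.4% and 65.6% in KO lung, and 35.2% to 73.7% in heart. Tpm4-201 and Tpm4-203 divided Tpm4 very unevenly between libraries of a group: Tpm4-201 had 91.1%, 56.0% and 98.9% in WT lung and 55.6%, 43.0% and 33.6% in KO lung, and 48.9% to 100% in heart (limma adjusted p = 0.16 between tissues, and 0.049 without heart WT replicate 2, when the difference moved from -22.7 to -30.7 points). The WT and KO lungs did not overlap for Tpm4-201, without passing the test (limma adjusted p = 0.64). Tpm3 transcripts were given 147 to 416 counts in heart, so shares there are coarse.

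Camk2d holds a cluster of alternative exons in its variable region. The exons printed here are the one of 33 bases, which codes for a nuclear localization signal (capitals, the codons of its basic residues) and defines the nuclear form delta B, and the one of 42 bases, present in delta 9 and delta A.
Camk2d 33-nucleotide exon (chr3:126596586-126596618, plus strand): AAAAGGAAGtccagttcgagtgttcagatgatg
Camk2d 42-nucleotide exon (chr3:126601857-126601898, plus strand): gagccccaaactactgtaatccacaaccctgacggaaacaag
The 42-base exon was in 40.0%, 29.3% and 29.0% of Camk2d counts in WT lung and 20%, 7.03% and 22% in KO lung. In heart it was in 72.8%, 79.9% and 67.2% in WT and 71.0%, 65.8% and 65.3% in KO. The tissues did not overlap (difference -45.8 points, limma adjusted p = 4.5e-05, exact p = 0.005). Camk2d-202, which holds the 42-base exon alone, was the main heart transcript at 45.8% to 68.6%, against 0% to 38.0% in lung (limma adjusted p = 0.0028). Camk2d-226 was the main lung transcript at 34.9% to 53.2%, against 0% to 22.7% in heart (limma adjusted p = 0.0022). The 33-base exon varied from 1.25% to 34.0% in lung and from 2.58% to 18.9% in heart, and neither it nor the 60-base exon of delta A passed (limma adjusted p = 0.50 and 0.13). Without lung KO replicate 3, where it was in 22% against at most 2% in the other lungs, the 60-base exon passed (-13.5 points, adjusted p = 0.034).

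In Ldb3, transcripts end either with LIM domains or in a short form without them. Its LIM-domain exons were in 66.4%, 75.4% and 92.6% of counts in WT lung and 67.7%, 77.0% and 74.0% in KO lung, and in 51.5% to 59.2% in heart (difference 20.6 points, limma adjusted p = 0.011, exact p = 0.005). The 94 coding bases that end the short form were in the remainder, 7.37% to 33.6% in lung and 40.8% to 48.5% in heart. The short form took a larger share in heart than in lung, and the tissues did not overlap. A long internal exon was in 91.3% to 98.5% in lung and 95.7% to 96.8% in heart, with no difference passing the test. Ldb3 had only 180 to 367 counts in lung, with Wilson half-widths of up to 6.37 points, against 13923 to 24549 in heart.

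Among the splicing factors, Mbnl1 was the one with exon groups that passed between tissues. In Mbnl1, the exon of 54 bases codes for part of a nuclear localization signal, and the exon of 36 bases lies near the end of the coding sequence.
Mbnl1 54-nucleotide exon (chr3:60522104-60522157, plus strand): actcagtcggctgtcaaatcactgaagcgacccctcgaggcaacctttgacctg
Mbnl1 36-nucleotide exon (chr3:60528844-60528879, plus strand): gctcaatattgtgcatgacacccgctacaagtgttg
The 36-base exon was in 66.2%, 55.6% and 75.1% of Mbnl1 counts in WT lung and 51.8%, 43.7% and 51.6% in KO lung. In heart it was in 29.1%, 21.97% and 33.5% in WT and 42.2%, 35.4% and 46.3% in KO. It was 22.6 points higher in lung (limma adjusted p = 0.0031, exact p = 0.010). The KO tissues overlapped, with lung KO replicate 2 at 43.7% and heart KO replicate 3 at 46.3%. Of 10 tested exon groups of Mbnl1, 6 passed. The exons shown were picked by length and by a tissue difference above the 10 points asked for a call. Their passing is therefore not separate support. The 54-base exon was in 14.8% to 50.3% in lung and 42.3% to 57.7% in heart, a difference of -15.0 points (limma adjusted p = 0.023, exact p = 0.045). That call did not hold with the replicate block (adjusted p = 0.15). It also did not hold without lung KO replicate 3 (adjusted p = 0.055), heart KO replicate 1 (0.051) or heart KO replicate 2 (0.050). These Mbnl1 shares rested on 3286 to 13588 counts per library.

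Celf1 had no exon group that passed, but 3 transcripts did. Celf1-203 made up 31.9% to 50.4% of Celf1 counts in lung and 0% to 16.4% in heart (26.1 points, limma adjusted p = 0.0067). Celf1-205 made up 13.8% to 33.7% in lung and 25.3% to 44.4% in heart (-17.5 points, limma adjusted p = 0.0082). With diffSplice neither passed (adjusted p = 0.089 and 0.44). Celf1-206 was at 0 in the 6 lungs, where 3 counts would be a share of up to 0.204%, and at 1.38% to 19.04% in heart (-10.3 points, limma adjusted p = 0.0010), and its difference was under 10 points without heart WT replicate 3 (-8.61) or heart KO replicate 3 (-8.56). Rbm20 was divided between Rbm20-203, which is protein-coding, and Rbm20-201, annotated as a target of nonsense-mediated decay, in similar shares in the tissues. Rbm20-203 made up 41.5% to 62.3% in lung and 52.8% to 57.6% in heart (limma adjusted p = 0.27), on 97.2 to 182 counts in lung. Rbm24 was nearly all Rbm24-201, at 96.6% or more in each library.

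**Figure D5:**
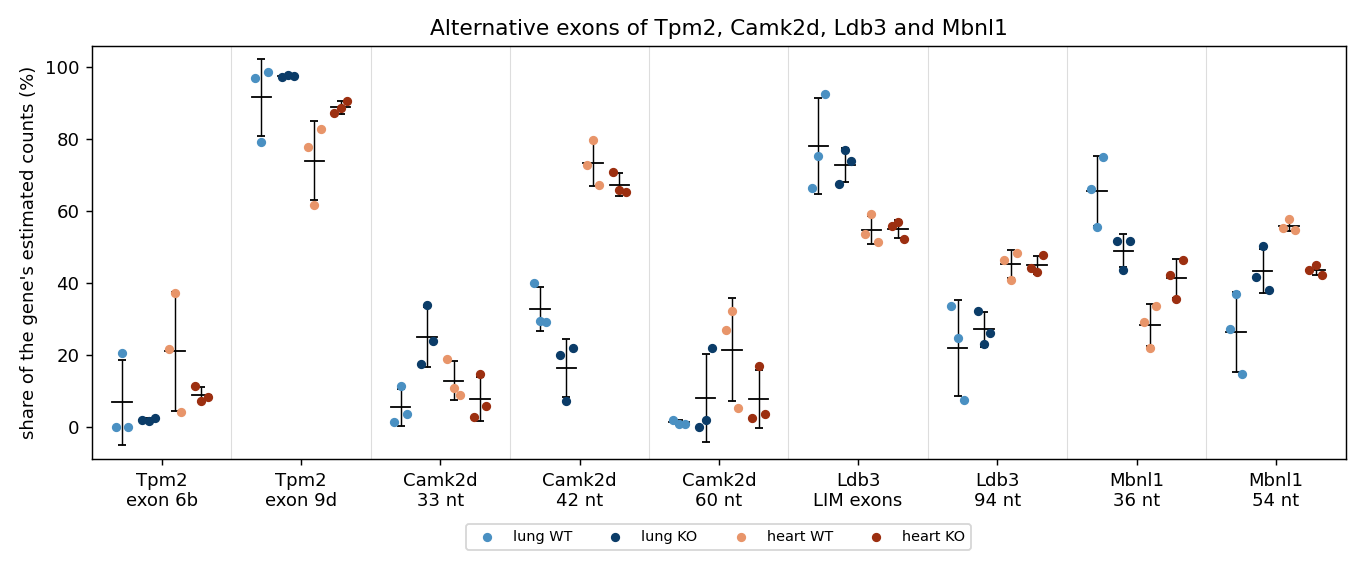
Share of the gene's estimated counts (y axis, %) from transcripts with each named exon of Tpm2, Camk2d, Ldb3 and Mbnl1, in each library, with the mean and SD of 3 libraries per group. The Camk2d 42-base exon and the Ldb3 ends separate lung from heart, the Tpm2 exons show lung WT replicate 2 apart from the other lungs, and the Mbnl1 exons separate WT tissues more than KO tissues.

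Lists of related genes were set beside the members. Of 21 tested genes for thin filament partners of tropomyosin, 12 were higher in heart, 6 were higher in lung and 3 did not pass. Over all genes tested, 21.2% were higher in heart and 30.1% were higher in lung. The median log2 difference of the list was -2.41, against 0.31 over all genes. Acta1, the skeletal actin gene, and Tnnt2, the cardiac troponin T gene (8.73 to 9.81 in lung, 16.36 to 16.65 in heart), had the largest differences toward heart. Tnnt3, of fast skeletal muscle, and Tmod2, which caps the pointed ends of actin filaments (10.30 to 10.85 in lung, 7.72 to 8.66 in heart), had the largest toward lung. Tnnt3 was 8.72 in lung WT replicate 2, 4.81 to 5.38 in the other lungs and 2.30 to 4.28 in heart. Of 27 tested further splicing regulators, 7 were higher in heart, 9 were higher in lung and 11 did not pass (median 0.23). These counts are not far from the shares over all genes. Rbfox1, a splicing factor of muscle and neurons, was lower in lung (3.27 to 5.19 against 9.92 to 10.24, log2 difference -5.88), and Esrp1, an epithelial splicing factor, was 8.74 to 9.07 in lung and at 0 in 5 of 6 hearts.

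Of 15 genes listed as targets of RBM20, 12 had exon groups that could be tested, and 8 of these 12 held at least 1 exon group that passed between tissues, against 23.7% of all 8411 genes with tested exon groups. Genes with more exon groups have more chances, and these 12 held 115. The differences were largest in Sh3kbp1 (74.7 points), Lrrfip1 (63.3 points) and Cacna1c (58.4 points). In Ryr2, Trdn, Nexn and Mlip no exon group passed, with differences of at most 9.55 points. No exon group of Ttn, the best known target, was among those tested.

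Between KO and WT, none of the 10 genes passed in lung or in heart. The background was 0.0665% of 16551 genes in lung and 0.085% of 15303 in heart. At an unadjusted p below 0.05 there were 2 of 10 members in lung and 1 of 10 in heart, against 5.93% and 7.46% of all genes tested. Those in lung were Tpm1 (log2 difference -0.54, SE 0.20) and Tpm3 (-0.52, SE 0.19), both with limma adjusted p = 0.81. For the summed counts of Tpm3 and Tpm3-rs7 the KO minus WT difference in lung was -0.0038 on the log2 scale (exact p = 1.0). In heart the 1 member was Tpm2, with 9.56, 9.30 and 9.11 in WT and 10.52, 9.80 and 10.77 in KO. The groups did not overlap, and KO was 2.06-fold higher (log2 difference 1.04, SE 0.24, limma adjusted p = 0.38). Without heart KO replicate 2 the adjusted p was 0.041, and without the other hearts in turn it was 0.36 to 0.99.

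Smooth muscle markers stood beside this Tpm2 difference. The summed level of the 6 smooth muscle markers was 14.2 to 14.4 in KO hearts and 13.5 to 13.8 in WT hearts. For 4 of the 6, each KO heart lay above each WT heart, and for the others this did not hold. The share of all genes with this order was not counted. Cnn1, an actin-binding protein of smooth muscle, was 8.10, 8.29 and 7.91 in WT heart and 9.65, 8.63 and 9.85 in KO heart. None of the 6 passed the test, and their part in the Tpm2 difference was not tested. Tpm2-203, the smooth muscle and non-muscle form, carried the difference (8.75 to 9.25 in WT against 9.62 to 10.61 in KO, exact p = 0.10, the smallest with 3 against 3). The Tpm2 effect did not pass as different between tissues (interaction -1.14, limma adjusted p = 0.52).

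No transcript or exon share of the members passed between KO and WT either. In lung 0 of 63 transcripts and 0 of 65 exon groups passed, against backgrounds of 0.218% and 0.0425%, and in heart 0 of 61 and 0 of 66, against 0.112% and 0.0183%. At an unadjusted p below 0.05 there were 11 of 65 exon groups in lung and 8 of 66 in heart, or 16.9% and 12.1%, against 6.76% and 5.99% of all exon groups. Exon groups of a gene share transcripts, so a shift in a gene can be counted more than once. The smallest limma adjusted p of a member group was 0.55 in lung and 0.83 in heart. For transcripts the counts were 10 of 63 in lung (15.9%, against 7.12% of all) and 3 of 61 in heart (4.92%, against 5.91% of all). The Camk2d 33-base exon had 1.25%, 11.3% and 3.64% in WT lung and 17.5%, 34.0% and 23.8% in KO lung, without overlap (limma adjusted p = 0.55). Tpm1 exon 6b had 79.6%, 78.5% and 79.8% in WT lung and 73.8%, 67.5% and 71.5% in KO lung, also without overlap (limma adjusted p = 0.75). Both exons were named from the 65 groups after their values were seen. How many of all exon groups lacked overlap between KO and WT was not counted.

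For the Mbnl1 54-base exon, KO and WT shares lay in opposite order in the tissues, but no test of this passed. The 54-base exon was in 27.2%, 36.9% and 14.8% in WT lung and 41.6%, 50.3% and 38.1% in KO lung, and in 55.3%, 57.7% and 54.8% in WT heart and 43.7%, 44.9% and 42.3% in KO heart. KO was above WT in lung and below WT in heart, with no overlap in either. The share of all exon groups without overlap was not counted. With 3 against 3 the exact permutation test cannot give less than p = 0.10. The difference between the tissues' genotype effects was 29.4 points (limma adjusted p = 0.39). No exon group of 34529 passed this test of the genotype effect between tissues (0.0%), and at an unadjusted p below 0.05 there were 17 of 69 member groups and 3061 of all. The member groups are not independent. For transcripts and genes the same test gave 0 of 77 and 0 of 10 members, against 0.065% and 0.00566%. With diffSplice, Mbnl1-201 passed between KO and WT in lung (26.0%, 13.7% and 35.6% in WT, 9.57%, 0% and 3.31% in KO, adjusted p = 0.028), and it did not pass in the share test (adjusted p = 0.55).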

How the data were processed

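RNA was extracted from whole lung and heart and sequenced as stranded total RNA. The authors deposited log2 values for genes and for transcripts. Per the labels, reads went through cutadapt, STAR and Salmon and then limma 3.42.2 on mm39. The gene values are log2 normalized abundances, and the transcript values are log2 of 1 plus the Salmon estimated count. The scaling between libraries is not given in the sources used here, and a constant per library set the transcript scale beside the gene scale. Per-sample columns of other series numbered 0.

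Transcript values were turned back to estimated counts, and each was divided by the sum over its gene. GENCODE vM39, a later release than the one the authors quantified, matched 99.5% of transcripts and all 130 of the members, and gave exon structure, lengths and sequence. Coding exons held by the same listed transcripts made 43396 exon groups. limma 3.58.1 in R 4.3.3 was fitted across all genes (log2 values of at least 3.46 in 3 libraries) and across arcsine square roots of shares (at least 10 counts in 3 libraries), with 4 groups for tissue and Benjamini-Hochberg adjustment. KO and WT were compared within a tissue. Calls needed adjusted p below 0.05 and 1.5-fold, or 10 percentage points. Exact permutation tests were two-sided, with 400 arrangements within genotype. Near-identical copies were searched with blastn 2.17.0 (at least 95% identity over 500 bases), and Wilson intervals used scipy 1.17.1. Scripts were tested on simulated data.

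Replicate numbers name the mouse, so lung and heart of one number come from 1 animal. Deviations from the group means in lung and heart of a mouse correlated from -0.068 to 0.14 over 17666 genes. The fit with the mouse as a replicate block was an alternative. Other alternatives changed the scaling, filter, variance trend, minimum count, length, transcript types and test, and left out each library. The exon groups and the sum with Tpm3-rs7 were added after the data were seen.

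The members and lists were chosen with earlier results of these data known. Named transcripts had a mean share of at least 10% in 1 of 4 groups, at most 6 per gene (32 named, 98 others), and list genes were named for the largest tissue differences of their list. Tpm1-215, the exons, Cnn1 and the spliced targets were named after their values were seen. The Tpm1 and Mbnl1 exons were picked in part by their tissue difference. The 12 libraries come from 6 mice, each giving a lung and a heart, and the main fits did not pair them. The labels do not give each mouse's litter, and p-values measure the spread between libraries of these mice. Intervals cover counting error only.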

Additional observations from a re-analysis of the deposited data

How the results depend on the processing

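For gene levels between tissues, 8 members were called under each alternative, including TMM scaling and the replicate block (mice paired), and without each library in turn (8 to 8). The replicate block gave 13 members called for transcript shares, with 2898 calls over all transcripts in place of 3769, and 23 for exon shares. It lost Mbnl1-218 (adjusted p = 0.098), the Mbnl1 54-base exon and the Camk2d exon at chr3:126595373-126595410 (68.9% in lung, 82.7% in heart), and gained Tpm2-202 and the Tpm2 exons 6a and 6b. With diffSplice 5 members were called in place of 13 for transcript shares between tissues (2251 of all transcripts), without Celf1-203, Celf1-205, Mbnl1-203, Mbnl1-218, Tpm2-203, Tpm1-213, Ldb3-201 and Ldb3-203, and 1 in place of 0 between KO and WT in lung. The cause was not tested. Leaving out 1 library gave 12 to 14 transcripts and 21 to 25 exon groups of the members between tissues, 0 to 1 genes between KO and WT in heart (Tpm2 without heart KO replicate 2), and 0 to 0 in the other comparisons of KO and WT and of the genotype effect between tissues. Counting protein-coding transcripts only gave 22 exon groups of the members, and 2564 in place of 5070 over all. Shares per length put Mbnl1-218, Tpm1-213, Tpm2-203 and the Tpm2 exons 9a and 9d between 9.37 and 9.94 points, under the 10 asked. Without lung KO replicate 3, Tpm3-212 passed (-12.9 points), and without lung WT replicate 1, Celf1-207 (10.6 points) and Mbnl1-207 (11.4 points) passed. Tpm2-203 was also lost without 1 of several single libraries (adjusted p up to 0.060). No called member changed direction under any alternative run. Depth limits lung Rbm20, Rbm24 and Ldb3, heart Tpm3, and any transcript share, which also depends on how Salmon divided reads among overlapping transcripts.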
